A study of Mus musculus with 8 samples.

Results

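The genes of the mevalonate and cholesterol synthesis pathway, with SREBP2 and the proteins that control it, were followed in livers of WT mice and of N-LKO mice on chow diet. The 31 genes were taken by name and by pathway step, with earlier results of these data known. All 31 were among the 19642 genes of the count table and among the 14214 genes with enough reads to be tested. Not every gene of the pathway is in the set, and the others were not analysed here. RNA was sequenced from livers of 4 WT and 4 N-LKO male mice on a C57BL6 background, 1 library per mouse. N-LKO mice carried loxP-flanked alleles of Nus1, the gene of NgBR (Nogo-B receptor), on both chromosomes together with Cre driven by the albumin promoter, so that the deletion was directed to hepatocytes and most other cells of the liver kept the gene. The WT mice received the same chow diet (CD), and the sources used here do not say whether they carried floxed alleles or Cre. The labels disagree on the time on diet, with 8 weeks in the sample titles and 16 weeks in the treatment entries. For mRNA levels in chow-fed livers the study's own legends have the time given in the titles. Other chow-fed livers of the study were taken after longer times.

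Hepatocytes make cholesterol from acetyl-CoA by way of mevalonate and isopentenyl diphosphate, the unit from which longer prenyl chains are built. Farnesyl diphosphate is the branch point. It is joined to squalene for cholesterol, extended by cis-prenyltransferase, of which NgBR is a subunit, for dolichol, and also used for prenylated proteins and for the side chain of ubiquinone. Most enzymes of sterol synthesis are transcribed under SREBP2, a membrane-bound factor that SCAP carries from the endoplasmic reticulum to the Golgi for cleavage when sterols are scarce and that INSIG proteins hold back when sterols are plentiful.

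The 8 libraries held from 14688404 to 18585412 counts. Nus1 fell in N-LKO liver by 1.26 on the log2 scale (SE 0.0747, adjusted p = 3.06e-05), with 82.0 to 90.5 CPM (the count scaled to a common library size) in the WT livers and 33.3 to 38.8 CPM in the N-LKO livers. The hepatocyte markers were abundant in every liver, at a summed 83030 to 107400 CPM in WT and 81750 to 100400 CPM in N-LKO, and 0 of the 8 passed the test. In whole liver, fewer cells of a type and less RNA per cell cannot be told apart. Every adjusted p given here is from edgeR's quasi-likelihood test over all 14214 genes, with Benjamini-Hochberg adjustment and a threshold of 0.05, and fold changes are log2 values of N-LKO over WT. The labels number the samples as biological replicates of each genotype, each 1 liver, and name no batch. Livers are numbered here as in the sample titles, and the library names number most of them otherwise. The p-values weigh the genotype difference against the spread between these 8 livers within each genotype.

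In the pathway as a whole, 1 of the 31 genes passed the test, Insig1, which rose in N-LKO liver. That is 3.23% of the set, beside 1.04% of all genes tested that were called in either direction and 0.823% called higher. At an unadjusted p under 0.05 there were 13 of 31 genes (41.9%), all 13 higher in N-LKO, beside 12.8% of all genes tested. The fold change was above 0 in 24 of 31 genes (77.4%), beside 49.3% of all genes, and its median was 0.28, beside -0.0033 for all genes. All 4 livers of one genotype lay on one side of the other's in 5 genes, beside 7.52% of all genes tested. In these 5 (16.1%) all 4 N-LKO livers lay above all 4 WT livers, beside 4.2% of all genes tested, and in 0 did all 4 lie below, beside 3.32%. They were Insig1, Mvd, Fdft1, Lss and Nsdhl. With libraries scaled by their totals alone, 3 genes (9.68%) were higher without overlap, beside 2.88% of all genes tested. Since the set was chosen with earlier results of these data known, these shares are descriptions and not an independent test.

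**Figure D1:**
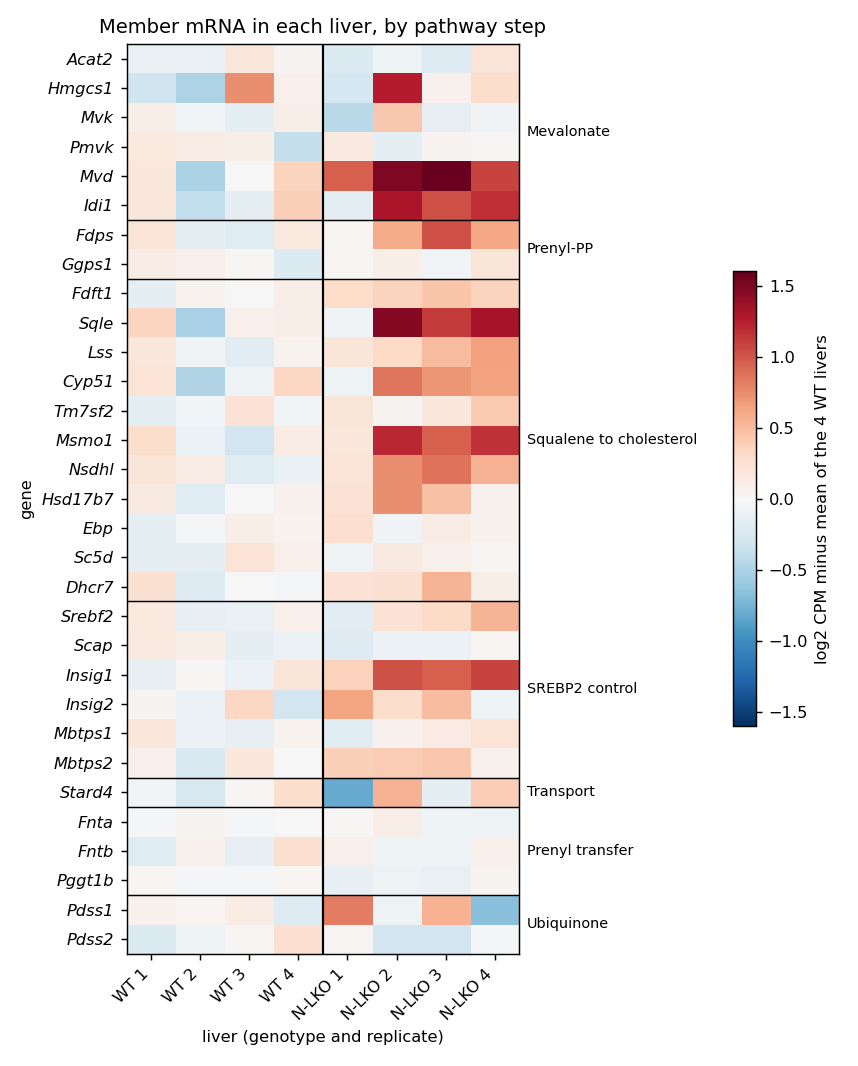
Log2 CPM of each of the 31 genes (rows, by pathway step) in each of the 8 livers (columns), as the difference from the mean of the 4 WT livers. Idi1, Fdps, Sqle, Cyp51, Msmo1, Nsdhl and Insig1 are red (higher) in N-LKO livers 2 to 4 and paler or blue in N-LKO liver 1, and the prenyl transfer rows are near white.

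The stretches of genome next to the starts of 4 genes are printed because these genes stand for the steps described next: Insig1, the called gene, Mvd and Nsdhl, both without overlap, and Hmgcs1, the one gene of the set whose stretch held the sterol element searched for. Each is the 250 bases before the RefSeq start on GRCm38.p6, read 5′ to 3′ on the strand of the gene. The RefSeq start minus the GENCODE M21 start was 49 bases for Insig1, 0 for Mvd, -36 for Nsdhl and -28 for Hmgcs1. The last 49 bases printed for Insig1 therefore lie inside the gene at the GENCODE coordinates given further on. Capitals mark the letters CCAAT on either strand (ATTGG where the match is on the other strand) and the sterol element TCACNCCAC.
Insig1, chr5:28071162-28071411, plus strand: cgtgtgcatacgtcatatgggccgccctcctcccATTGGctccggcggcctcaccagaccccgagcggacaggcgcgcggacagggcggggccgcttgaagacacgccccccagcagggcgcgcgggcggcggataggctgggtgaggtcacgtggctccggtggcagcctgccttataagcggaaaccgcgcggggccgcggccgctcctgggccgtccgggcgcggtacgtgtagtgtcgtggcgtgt
Mvd, chr8:122443423-122443672, minus strand: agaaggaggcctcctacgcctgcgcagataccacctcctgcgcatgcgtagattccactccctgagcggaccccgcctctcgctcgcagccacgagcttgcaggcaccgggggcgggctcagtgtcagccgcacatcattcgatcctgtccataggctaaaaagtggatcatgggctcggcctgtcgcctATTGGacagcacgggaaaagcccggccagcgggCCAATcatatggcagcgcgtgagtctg
Nsdhl, chrX:72918271-72918520, plus strand: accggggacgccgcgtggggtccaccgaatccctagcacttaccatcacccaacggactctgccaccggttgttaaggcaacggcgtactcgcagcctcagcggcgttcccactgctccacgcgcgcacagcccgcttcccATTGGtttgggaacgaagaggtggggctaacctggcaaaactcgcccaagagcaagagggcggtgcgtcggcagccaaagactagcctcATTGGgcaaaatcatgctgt
Hmgcs1, chr13:119690101-119690350, plus strand: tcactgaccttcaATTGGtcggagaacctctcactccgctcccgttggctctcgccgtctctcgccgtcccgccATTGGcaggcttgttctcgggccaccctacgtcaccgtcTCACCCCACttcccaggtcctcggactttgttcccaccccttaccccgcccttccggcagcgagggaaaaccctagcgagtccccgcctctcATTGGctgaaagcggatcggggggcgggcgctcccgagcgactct
RefSeq entries matched 25 of the 31 genes. Some genes have more than 1 RefSeq start, and a gene was counted if any of its windows held the letters. CCAAT, the letters bound by the factor NF-Y, stood in the window of 15 of 16 enzyme genes from acetyl-CoA to cholesterol (93.8%) and of 18 of 25 genes of the set (72.0%), beside 40.5% of the 9863 tested genes with a window and 37.5% of all 27025 genes with one. The GC box GGGCGG stood in 21 of 25 (84.0%), beside 61.8% of tested genes and 35.4% of all genes. TCACNCCAC was found in 1 of 25, beside 1.31% of tested genes and 1.22% of all genes. Only this string and only these windows were searched, so elements with other letters or at other places were not looked for. The E-box CACGTG was found in 5 of 25, Insig1 among them, beside 9.97% of tested genes and 6.86% of all. All 4 motifs were searched on both strands, and no match of one overlapped a match of another in the 25 genes. A match of letters is a description and not a bound site.

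The first step takes acetyl-CoA to isopentenyl diphosphate, and 0 of its 6 genes passed the test, with fold changes from -0.07 to 1.51. Mvd, which makes isopentenyl diphosphate by decarboxylation (chr8:122433601-122443422 on GRCm38, GENCODE M21, minus strand), had the largest fold change of the 31 genes. It was measured at 0.374, 0.188, 0.317 and 0.442 CPM in WT livers 1 to 4 and at 0.737, 1.12, 1.19 and 0.815 CPM in N-LKO livers 1 to 4. All N-LKO livers lay above all WT livers, on only 3 to 18 reads per liver. The fold change was 1.51 (SE 0.337, adjusted p = 0.0705), and the exact permutation test of the mean CPM (two-sided) gave p = 0.0286, the smallest that 4 against 4 allows.

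Idi1, the isomerase that turns isopentenyl into dimethylallyl diphosphate, stood at 27.8, 18.6, 22.1 and 32.2 CPM in the WT livers and at 22.3, 61.3, 50.4 and 55.4 CPM in the N-LKO livers. N-LKO livers 2 to 4 lay above every WT liver, and N-LKO liver 1 lay within the WT range. The fold change was 0.91 (SE 0.274, adjusted p = 0.179). Hmgcs1, the synthase that makes HMG-CoA, spread widely within each genotype. Its values were 95.1, 84.4, 199 and 126 CPM in WT and 98.0, 284, 125 and 144.1 CPM in N-LKO, with a fold change of 0.37 (SE 0.336, adjusted p = 0.710). Without N-LKO liver 2 that fold change was -0.039. The remaining genes of the step differed little. Acat2, the cytosolic thiolase, averaged 20.7 ± 2.12 CPM in WT and 19.7 ± 2.81 CPM in N-LKO (SD, n = 4), Mvk, mevalonate kinase, 2.28 ± 0.204 and 2.24 ± 0.615 CPM, and Pmvk, phosphomevalonate kinase, 7.72 ± 1.26 and 7.74 ± 0.656 CPM. Their fold changes were -0.07, -0.028 and 0.0050. Those of Mvk and Pmvk changed sign when single livers were left out.

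Of the prenyl diphosphate synthases, Fdps makes farnesyl diphosphate and Ggps1 geranylgeranyl diphosphate, and 0 of the 2 passed the test. Fdps was measured at 8.55, 6.63, 6.47 and 8.28 CPM in WT and at 7.598, 11.3, 15.3 and 11.5 CPM in N-LKO. Again N-LKO livers 2 to 4 were above all WT livers and liver 1 was not, and the fold change was 0.60 (SE 0.194, adjusted p = 0.207). Fdps shares exonic bases with the gene Gm43738 on the same strand and had counts with decimals in all 8 livers, so its reads may have been divided between them. Ggps1 averaged 13.5 ± 1.35 CPM in WT and 14.1 ± 0.986 CPM in N-LKO (SD, n = 4), a fold change of 0.066 (SE 0.100), which was -0.0028 without WT liver 4.

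From farnesyl diphosphate to cholesterol, all 11 enzymes had a fold change above 0, beside 49.3% of all genes tested, with a median of 0.40. At an unadjusted p under 0.05 there were 8 of 11 (72.7%), beside 12.8% of all genes tested, and 0 passed the adjusted test. The step was taken with earlier results of these data known, so these shares are descriptions. Fdft1, squalene synthase, which commits farnesyl diphosphate to sterols, had the smallest adjusted p of the 11. It stood at 24.5, 28.3, 27.0 and 29.4 CPM in WT and at 33.5, 34.9, 36.96 and 35.0 CPM in N-LKO. The groups did not overlap and each was tight, and the fold change was 0.36 (SE 0.0788, adjusted p = 0.0627). Exons of Fdft1 overlap those of the abundant gene Ctsb on the opposite strand, and since no source says that strand was used in counting, reads of the pair cannot be told apart there.

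Sqle, squalene epoxidase, a slow step of the pathway, had the largest fold change among the 11. It was at 8.66, 4.69, 7.16 and 7.28 CPM in WT and at 6.52, 19.1, 14.9 and 17.2 CPM in N-LKO. N-LKO liver 1 was lower than 3 of the 4 WT livers, while the other N-LKO livers were above all of them. The fold change was 1.04 (SE 0.293, adjusted p = 0.156). Lss, which closes the rings to lanosterol, was at 9.35, 7.88, 7.23 and 8.50 CPM in WT and at 9.41, 10.2, 11.7 and 12.97 CPM in N-LKO. The groups did not overlap, but the lowest N-LKO liver and the highest WT liver nearly met, and the fold change was 0.42 (SE 0.129, adjusted p = 0.182).

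Removal of the methyl groups of lanosterol takes Cyp51, Msmo1, Nsdhl and Hsd17b7 in turn with the reductase Tm7sf2. Msmo1, the methyl oxidase, stood at 28.4, 21.8, 18.9 and 25.3 CPM in WT and at 26.5, 54.1, 45.2 and 52.3 CPM in N-LKO. Only N-LKO liver 1 lay within the WT range, and the fold change was 0.91 (SE 0.206, adjusted p = 0.0727). Nsdhl, the decarboxylating dehydrogenase (chrX:72918557-72958514, plus strand), was at 10.1, 9.57, 7.67 and 8.17 CPM in WT and at 10.2, 14.8, 16.3 and 13.04 CPM in N-LKO. Its groups did not overlap, though N-LKO liver 1 was next to the highest WT liver, and the fold change was 0.61 (SE 0.152, adjusted p = 0.105). Cyp51, the demethylase, averaged 39.3 ± 9.30 CPM in WT and 57.1 ± 14.5 CPM in N-LKO (SD, n = 4), a fold change of 0.54 (SE 0.209, adjusted p = 0.308). Hsd17b7, the keto-reductase, averaged 74.4 ± 7.32 and 97.9 ± 20.1 CPM, a fold change of 0.40 (SE 0.135, adjusted p = 0.233), and Tm7sf2 had a fold change of 0.21 (SE 0.106, adjusted p = 0.468).

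The last steps move and remove double bonds of the ring system. Dhcr7, the reductase of the final reaction in one arm of the pathway, averaged 18.4 ± 2.41 CPM in WT and 22.3 ± 3.11 CPM in N-LKO (SD, n = 4), with a fold change of 0.28 (SE 0.122, adjusted p = 0.372). Ebp, the isomerase, and Sc5d, the desaturase, had the highest levels per kilobase of exon among the 11 enzymes and showed the smallest fold changes, 0.10 (SE 0.0855) and 0.042 (SE 0.0968). That of Sc5d was -0.0091 without WT liver 1.

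**Figure D2:**
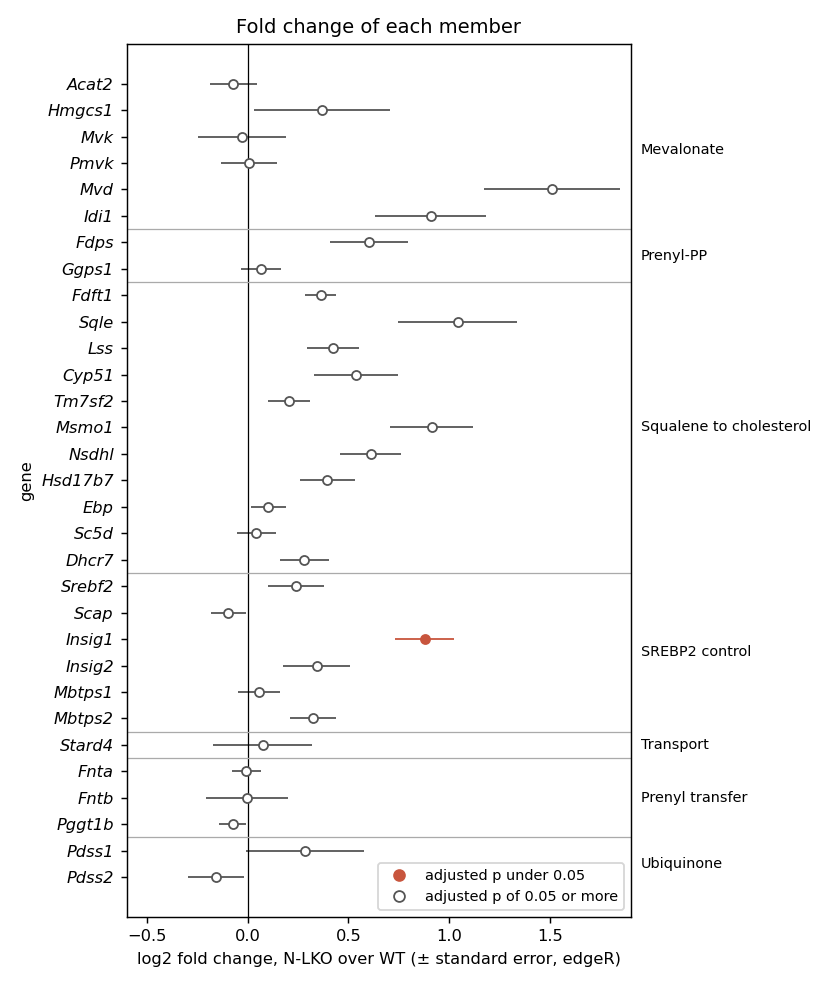
Log2 fold change of N-LKO over WT from edgeR with its SE for each of the 31 genes, by pathway step, with the called gene marked. Mvd at 1.51 and Sqle at 1.04 lie farthest from 0, Insig1 at 0.88 is the one called gene, and the lowest is Pdss2 at -0.16.

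Among the genes of SREBP2 and its control, Insig1 rose and the other 5 did not pass the test. Insig1 (chr5:28071363-28078662, plus strand) encodes a protein that holds SCAP in the endoplasmic reticulum and is itself a target of SREBP2. It was at 26.7, 29.8, 27.4 and 33.5 CPM in WT livers 1 to 4 and at 37.8, 59.3, 57.0 and 62.0 CPM in N-LKO livers 1 to 4. Every N-LKO liver lay above every WT liver, with N-LKO liver 1 closest to them. The fold change was 0.88 (SE 0.146, adjusted p = 0.0180) on 433 to 913 reads per liver. The exact two-sided permutation test gave p = 0.0286, which any gene without overlap gets, 7.52% of all genes tested. The call did not hold without WT liver 2 (adjusted p = 0.0536), WT liver 3 (adjusted p = 0.0607) or N-LKO liver 3 (adjusted p = 0.0608), with fold changes of 0.88, 0.85 and 0.85. Without N-LKO liver 1 the fold change was 1.02 (adjusted p = 0.00178).

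Insig2 encodes the related protein, whose main transcript in liver is not driven by SREBP2. Insig2 stood at 690, 628, 843 and 546 CPM in WT and at 1037, 814, 941 and 639 CPM in N-LKO, and its groups overlapped (fold change 0.34, SE 0.165, adjusted p = 0.421). Srebf2, the gene of SREBP2 itself, was at 23.0, 18.8, 19.1 and 21.8 CPM in WT and at 18.3, 24.2, 25.5 and 30.1 CPM in N-LKO. N-LKO liver 1 was the lowest of all 8 and the other N-LKO livers were the highest (fold change 0.24, SE 0.140, adjusted p = 0.521). Scap was at 64.0, 62.5, 52.3 and 54.7 CPM in WT and at 50.3, 54.6, 54.4 and 59.3 CPM in N-LKO, a fold change of -0.096 (SE 0.0869, adjusted p = 0.709) with overlapping groups. Of the Golgi proteases that release the factor, Mbtps1 had a fold change of 0.057 (SE 0.103) and Mbtps2 of 0.32 (SE 0.115, adjusted p = 0.254). Exons of the gene Yy2 overlap those of Mbtps2 on the same strand, so reads of these genes may be divided between them.

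Stard4, a sterol carrier and SREBP2 target, was measured at 28.6, 24.7, 29.8 and 35.9 CPM in WT and at 16.8, 43.5, 26.5 and 38.8 CPM in N-LKO. The N-LKO livers held both the lowest and the highest value of all 8. The fold change was 0.074 (SE 0.245, adjusted p = 0.938), and it ranged from -0.12 to 0.28 when single livers were left out.

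The branches that spend prenyl diphosphates outside sterols showed no called gene in the set. The farnesyl and geranylgeranyl transferase subunits Fnta, Fntb and Pggt1b had fold changes of -0.0066, -0.0050 and -0.074, and those of Fnta and Fntb changed sign when single livers were left out. Pggt1b was at 41.6, 39.8, 40.1 and 41.5 CPM in WT and at 37.2, 38.4, 37.5 and 41.8 CPM in N-LKO. All N-LKO livers but the last were below all WT livers, and the last was above them (SE 0.0682, adjusted p = 0.714). Pdss1 and Pdss2 together make the side chain of ubiquinone. Pdss2 was at 6.04, 6.69, 7.10 and 8.44 CPM in WT and at 7.09, 5.68, 5.71 and 6.86 CPM in N-LKO, the lowest fold change of the set at -0.16 (SE 0.140, adjusted p = 0.702), with overlapping groups. Pdss1 was at 2.10 to 2.66 CPM in WT and spread from 1.49 to 4.42 CPM in N-LKO (fold change 0.28, SE 0.293).

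In the dolichol branch, 1 of 7 genes was called, the deleted gene Nus1. Its partner Dhdds, the catalytic subunit of cis-prenyltransferase, was at 16.4 to 18.8 CPM in WT and 17.8 to 18.9 CPM in N-LKO, a fold change of 0.062 (SE 0.0792, adjusted p = 0.806). Dpagt1, which places the first sugar on dolichol phosphate, was at 12.4 to 14.1 CPM in WT and 14.7 to 16.4 CPM in N-LKO. Its groups did not overlap (fold change 0.21, SE 0.0854, adjusted p = 0.343). The reductase Srd5a3 and the kinase Dolk, which complete dolichol and its phosphate, had fold changes of -0.069 (SE 0.127) and 0.053 (SE 0.105).

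Averaged over the genes of a step, log2 CPM from squalene to cholesterol was 4.80 ± 0.107 in WT and 5.23 ± 0.193 in N-LKO (SD, n = 4), a difference of 0.43, and all 4 N-LKO livers lay above all WT livers. For SREBP2 and its control the difference was 0.28, also without overlap. With libraries scaled by their totals alone, 3 of the 4 N-LKO livers lay above all WT livers in each of these steps. The difference was 0.39 for the mevalonate step and 0.32 for the prenyl diphosphate synthases, each with 3 of 4 N-LKO livers above all WT livers. It was -0.0013 for Stard4, -0.027 for prenyl transfer and 0.0023 for the ubiquinone side chain, with overlapping groups in each. These step means are descriptions and were not tested.

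**Figure D3:**
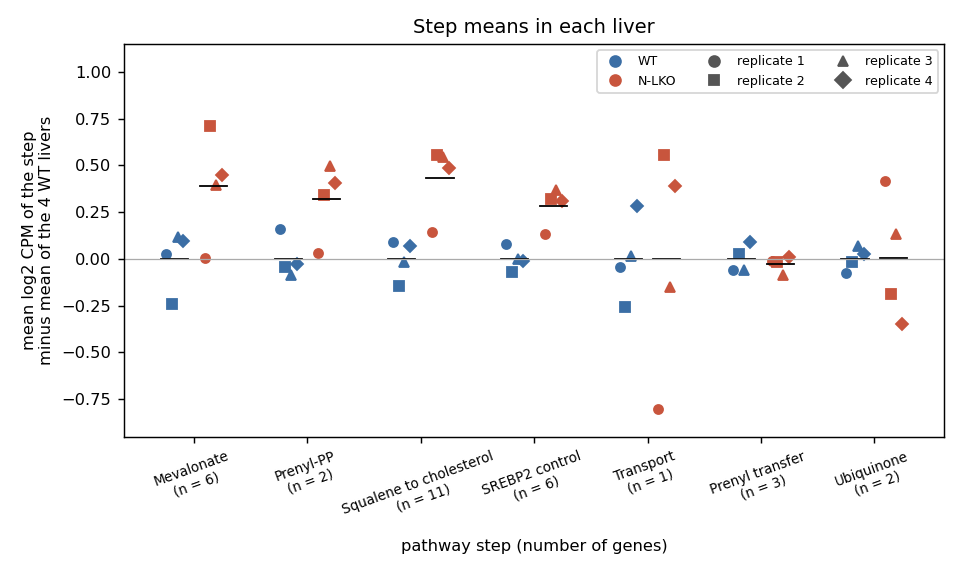
Mean log2 CPM of the genes of each step in each liver, minus the mean of the 4 WT livers; marks give the replicate, colours the genotype and black lines the group means. N-LKO livers 2 to 4 lie above all WT livers in the first 4 steps, N-LKO liver 1 lies closer to the WT livers there, and the genotypes mix in the last 3 steps.

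The N-LKO livers were not alike. Among the 19 enzymes from acetyl-CoA to cholesterol, 13 (68.4%) were above the highest WT liver in N-LKO liver 2, 12 (63.2%) in liver 3 and 12 (63.2%) in liver 4. In N-LKO liver 1 the number was 6 (31.6%). Over all genes tested the shares were 23.5%, 23.9%, 24.3% and 22.0% in N-LKO livers 1 to 4. N-LKO liver 1 was the lowest N-LKO liver for 13 of the 19 enzymes. It also had the lowest Nus1 of all 8 livers, at 33.3 CPM. This liver is singled out after its values were seen. Of the 8 fits that left out 1 liver each, those without WT liver 2, WT liver 3 or N-LKO liver 3 called 0 genes of the set and 4 others called 1. The fit without N-LKO liver 1 called 5 (16.1%), beside 0.891% of all genes tested in that fit. They were Insig1, Idi1 (fold change 1.14, SE 0.167, adjusted p = 0.0147), Sqle (1.29, SE 0.182, adjusted p = 0.0126), Msmo1 (1.10, SE 0.135, adjusted p = 0.00608) and Nsdhl (0.73, SE 0.130, adjusted p = 0.0374).

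Across the 8 livers, single genes followed the mean of the other sterol synthesis genes to very different degrees. Pearson's r was 0.949 for Idi1, 0.947 for Mvd, 0.939 for Insig1, 0.938 for Msmo1, 0.934 for Sqle and 0.928 for Fdps. It was 0.799 for Srebf2, 0.514 for Hmgcs1 and 0.433 for Stard4. Ebp and Acat2 stood at 0.015 and -0.045, and Pmvk at -0.20. The lowest of the set were Pdss2 at -0.552 and Pggt1b at -0.296. These values describe 8 livers of 2 genotypes, with all genes read from the same 8 libraries, and carry no test. The mean of the sterol synthesis genes was itself higher in the N-LKO livers, and the part of genotype in these values was not tested.

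**Figure D4:**
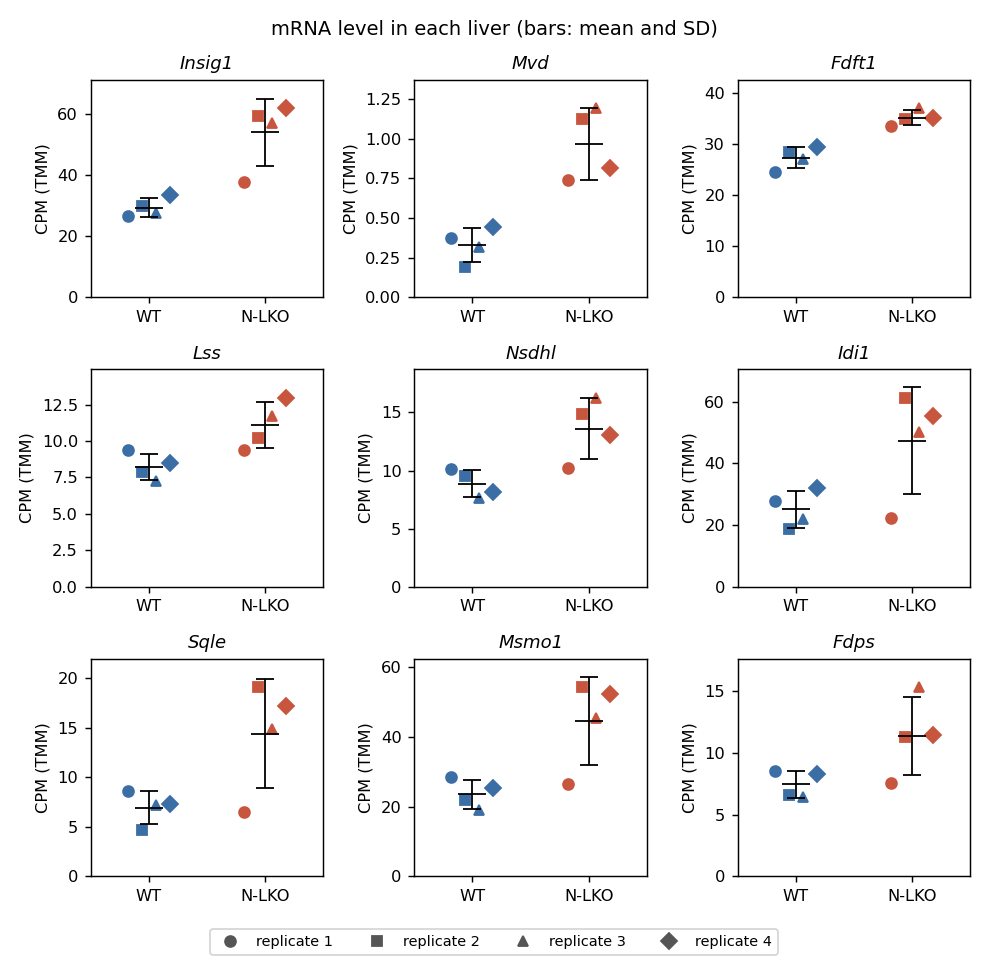
CPM, on linear axes from 0, in each of the 4 WT and 4 N-LKO livers for 9 members, with the mean and SD of each genotype as bars and the replicate as the shape of the mark. Insig1, Mvd, Fdft1, Lss and Nsdhl show no overlap between genotypes, and in Idi1, Sqle, Msmo1 and Fdps N-LKO liver 1 lies among the WT livers.

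Levels per kilobase of annotated exon set the members apart by far more than genotype did. In WT liver Insig2 was highest at 195 ± 36.2 CPM per kb (SD, n = 4), followed by Sc5d at 40.7 ± 5.21 and Ebp at 39.6 ± 2.84 CPM per kb, which did not differ beyond their spread. Hmgcs1 stood at 27.4 ± 11.2, Hsd17b7 at 14.6 ± 1.43 and Insig1 at 9.50 ± 0.994 CPM per kb. Fntb, at 0.406 ± 0.0616, and Mvd, at 0.177 ± 0.058 CPM per kb, were the lowest. Counts came with decimals in at least 1 liver for 16 of the 31 genes, and 8 genes share exonic bases with a gene on the other strand, among them Hmgcs1, Idi1, Fdft1, Lss and Cyp51. Another 5 (Fdps, Tm7sf2, Mbtps2, Fntb and Pdss2) share exonic bases with a gene on the same strand. Insig1, Mvd, Sqle, Msmo1, Nsdhl, Hsd17b7 and Dhcr7 had whole counts and no such overlap. So did Mvk, Pmvk, Srebf2, Mbtps1, Stard4, Fnta and Pggt1b, with fold changes from -0.074 (Pggt1b) to 0.24 (Srebf2).

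Further genes around the pathway gave few differences. Of Tmem97, Rdh11, Acss2, Fads1 and Fads2, 0 of 5 had an unadjusted p under 0.05, with fold changes from -0.18 for Acss2 to 0.18 for Rdh11. Among 7 genes of sterol-regulated degradation at the endoplasmic reticulum 0 were called, and Erlin1, part of the complex that delivers substrates there, had a fold change of -0.39 (SE 0.0917, adjusted p = 0.0830) without overlap. Of 8 genes of cholesterol esterification, export and lysosomal exit 0 were called. Soat2, the esterifying enzyme of hepatocytes, had a fold change of -0.30 (SE 0.125, adjusted p = 0.343), and Abcg5 and Abcg8, which pair as the biliary sterol exporter, 0.22 (SE 0.101) and 0.19 (SE 0.0840). In the ring steps of ubiquinone 0 of 9 and in the processing of prenylated proteins 0 of 7 were called. Srebf1, whose product drives fatty acid synthesis, was at 4.13 to 10.2 CPM in WT and 10.5 to 15.4 CPM in N-LKO (fold change 0.80, SE 0.228, adjusted p = 0.161), and with DESeq2 its adjusted p was 0.0367.

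Genes of feeding, the clock and other cell types were read in the same fit. Fgf21, a fasting-induced hormone, fell by 0.93 on the log2 scale (SE 0.163, adjusted p = 0.0224), the only one of 10 feeding and fasting genes called, and of the fits that left out a liver, its call held only in those without WT liver 2 or without N-LKO liver 1 (adjusted p elsewhere up to 0.0785). Of 12 clock genes 0 were called, and Nr1d1, a clock repressor, had a fold change of -1.18 (SE 0.257, adjusted p = 0.0632) without overlap. Nr1d1 was called with DESeq2 (adjusted p = 0.000399), with no filter on low counts (adjusted p = 0.0463) and without N-LKO liver 4 (adjusted p = 0.0129). Among cholangiocyte markers Epcam and Spp1 rose, 2 of 4 tested, and the summed level of all 6 markers listed was 23.3 to 45.01 CPM in WT and 52.1 to 132.2 CPM in N-LKO. Most of that sum was Spp1, at 16.1 to 32.5 CPM in WT and 37.4 to 105.4 CPM in N-LKO. Krt7 and Cldn7 had too few reads to be tested. Col1a1 and Lum rose, 2 of 5 portal fibroblast and matrix markers, with sums of 143.8 to 199 and 217 to 306 CPM. Most of these sums was Dcn, which was not called, at 119 to 162 CPM in WT and 160 to 237 CPM in N-LKO. Colec10 fell, 1 of 5 stellate cell markers, with sums of 99.1 to 158 and 99.3 to 140 CPM. The calls of Epcam, Spp1 and Col1a1 were each lost without some single livers (adjusted p up to 0.0877, 0.0964 and 0.114), and those of Lum and Colec10 were not. None of the Kupffer cell, sinusoidal endothelium, lymphocyte, erythroid or fat cell markers tested was called, and none of the tested markers was at 0 in any liver. The part of the clock, of feeding and of these cells in the values of the sterol genes was not tested.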

How the data were processed

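RNA was measured in 8 mouse livers, 1 library per mouse, grouped by the genotype in the labels. Per the study's methods, ribosomal RNA was removed, reads were trimmed and aligned with TopHat2, and transcripts were compared with cuffdiff, which needs reads and was not run. The submitters' processing notes also name STAR, Partek and mm9. Which program gave the counts is not given in the sources used here. The authors deposited expected counts per gene, with a decimal value in at least 1 mouse for 41% of the 19642 genes (tolerance 0.01). Gene starts in the table match GENCODE M21 on GRCm38 for 31 of 31 members, so those coordinates are given.

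Expected counts were rounded to whole numbers, filtered with edgeR's filterByExpr (minimum count 10, minimum total 15), scaled by TMM and fitted on genotype alone by edgeR's quasi-likelihood functions glmQLFit and glmQLFTest (version 4.0.16, R 4.3.3). Calls were made under a Benjamini-Hochberg adjusted p of 0.05. Log2 CPM used a prior count of 2. The fits were also run on simulated independent counts, in which only genes with more reads than Mvd were changed. That run does not cover genes with few reads or a single unlike liver. Single genes were also compared by an exact permutation test over mice. Alternatives were other scalings, filters, DESeq2 1.42.0, limma-voom 3.58.1, a replicate block and leaving out each mouse.

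The members and lists were chosen with earlier results of these data known. All 31 members are named, and members called, without overlap, or among the 3 largest and 3 smallest fold changes are given in every mouse. From the lists of other pathway genes every called one is named. Those not called are named only in part, by no fixed order, and are otherwise only counted. Libraries of 14688404 to 18585412 counts limit precision most for Mvd, and the depth covers counting error only. All pairs of libraries differed by more than counting noise. Sequences are RefSeq's.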

Additional observations from a re-analysis of the deposited data

Results flagged for a closer look

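Dixon's test at the 95% level was run in 78 groups of 4 livers. These were each member, each step mean and the mean of all 31 members, in each genotype. It found 4 groups in which 1 liver stood far from the other 3, where chance alone gives about 3.9 (1 in 20 groups). The groups are not separate, since the means are built from the same members. Insig1 was at a log2 CPM of 5.24 in N-LKO liver 1, with 5.84 to 5.96 in the other N-LKO livers, and that value lay on the side of the WT livers. The mean log2 CPM from squalene to cholesterol was 4.94 in the same liver, with 5.29 to 5.35 in the others. Pmvk was at 2.58 in WT liver 4, with 3.05 to 3.12 in the other WT livers. Mbtps2 was at 3.84 in N-LKO liver 4, with 4.15 to 4.20 in the other N-LKO livers.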

How the results depend on the processing

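Of all genes, 148 were called, 98 with at least 10 counts required in every mouse, 387 with DESeq2 and 71 to 173 when 1 mouse was left out. Of the 31 members, 1 was called, 5 with DESeq2 (Insig1, Fdft1, Sqle, Msmo1 and Nsdhl, beside 2.28% of all genes called by it) and 0 to 5 when 1 mouse was left out, with 0 without WT 2, WT 3 or N-LKO 3 and 5 without N-LKO 1. Insig1 was called under every setting that used all 8 mice. Members without overlap were 5 (7.52% of all genes), 3 with library totals alone (7.5%) and 5 to 11 when 1 mouse was left out (10% to 12.8%), with 11 without N-LKO 1 (11.1%). Other pathway genes called were 2 (Nus1 and Fgf21), 5 with DESeq2 (also Erlin1, Srebf1 and Nr1d1) and 1 to 2 when 1 mouse was left out. Residuals of mice with the same replicate number correlated by -0.085 to 0.062 by title and by -0.0092 to 0.17 by library name, so the numbers were not taken to pair the mice. A replicate block gave 131 calls and 1 member called, with Fgf21 no longer called (adjusted p = 0.0572 by edgeR) and Srebf1 called (0.0488), and the block by library name 113 calls and 2 members called (Insig1 and Msmo1), with Nr1d1 called (0.0393). Signs turned for Pmvk with library totals alone (-0.030) and no filter (-0.0027), Stard4 with limma-voom (-0.016) and Fntb with limma-voom (0.0086), the replicate block (0.0041) and the block by library name (0.00090). When 1 mouse was left out, fold changes spanned 0 for Hmgcs1 (-0.039 to 0.67), Mvk (-0.22 to 0.10), Pmvk (-0.11 to 0.062), Ggps1 (-0.0028 to 0.11), Sc5d (-0.0091 to 0.12), Stard4 (-0.12 to 0.28), Fnta (-0.041 to 0.018) and Fntb (-0.074 to 0.093). The causes were not tested.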

Other observations

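The 10 genes outside the pathway whose log2 CPM over the 8 livers was most like the mean of the squalene to cholesterol genes, of 13137 with a mean of at least 1 CPM, were Myo5a (Pearson's r = 0.972), Thbs1 (0.972), Col6a2 (0.970), Tbc1d31 (0.969), Gdf6 (0.966), Clmp (0.964), Myof (0.961), Rasa2 (0.954), Mamdc2 (0.954) and Lrrc8c (0.953). Thbs1 encodes a matricellular glycoprotein and Col6a2 a chain of collagen VI. Their fold changes ranged from 0.35 to 1.19. The genes were chosen for likeness to a mean that is itself higher in all 4 N-LKO livers, so this is a description with no test. These likenesses rest on 8 livers of 2 genotypes, with all genes read from the same 8 libraries.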
